A study of Mus musculus with 17 samples.

Results

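Interferon-stimulated genes are the genes that cells switch on when they sense interferon, and their levels were followed across 6 groups of sorted mouse myeloid cells. The members were given as 45 gene symbols. A gene was measured where at least 1 probe set carried its symbol alone, and of several such probe sets the one brightest on average across the 17 arrays was taken. In all, 44 of the 45 were measured, out of 17097 genes, and Tap1 was not analysed here. Wild-type spleen gave 3 pools of macrophages, gated for CD11b and the M-CSF receptor and against CD11c, and 3 pools of granulocytes, gated as CD11c-negative, CD11b-positive, Ly6C-positive and M-CSF receptor-negative. Bone marrow gave MDPs, the myelo-dendritic progenitors from which macrophages and dendritic cells are held to arise, gated as lineage-, Sca1- and CD127-negative and as CD117- and M-CSF receptor-positive. There were 3 pools of MDPs from wild-type mice, 3 pools labelled as IRF8 knockout, 3 pools from reporter mice that expressed VENUS, a fluorescent protein, and 2 pools without VENUS. The genotype label of the knockout pools and of both VENUS groups is IRF8-deficient, and the labels leave unsaid how the reporter allele relates to it, so those groups are called knockout-labelled, VENUS-positive and VENUS-negative. Each spleen, wild-type and knockout-labelled pool held cells of 5 mice, and the mice were 6 to 10 weeks old. For the VENUS pools the labels state no number of mice.

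Type I interferon acts through its receptor and JAK kinases on a complex with IRF9, which binds the interferon-stimulated response element (ISRE) in the promoters of these genes. Interferon-gamma acts through a receptor of its own on a different element, the gamma-activated site (GAS). IRF8 is an interferon regulatory factor of macrophage and dendritic cell precursors, and it can bind ISRE-like sequences, or composite sequences together with PU.1. The products sense viral nucleic acid, block viral replication, cut and load peptides for MHC class I, or dampen the response itself.

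Levels are the authors' RMA values, which are log2 units, and differences are log2 differences with the first-named group minus the second. The array medians lay between 4.33 and 4.48 and the lower quartiles between 3.18 and 3.42, so a level near 3.4 is in the dim range of the array. A gene is called where its adjusted p-value, from limma and after Benjamini-Hochberg adjustment over all 17097 genes, was under 0.05. Irf8 read 10.27, 10.56 and 10.19 in wild-type pools 1 to 3 and 10.32, 10.42 and 10.18 in the knockout-labelled pools, so its probe set did not separate these groups. The labels do not place that probe set inside or outside the targeted exons, so it does not check the label. Irf8 read 10.72, 10.81 and 11.1 in the VENUS-positive pools and 5.49 and 6.25 in the VENUS-negative pools. The macrophage and monocyte markers averaged 9.93 to 10.17 in the macrophage pools, and the neutrophil markers 12.05 to 12.40 in the granulocyte pools, each the highest of the 6 groups. Single transcripts did not all follow the gates. Csf1r, the M-CSF receptor gene, read 7.16, 8.19 and 8.56 in granulocytes and 7.4, 7.76 and 7.52 in wild-type MDPs. Cd14 read 8.17, 8.27 and 7.96 in granulocytes and 6.02, 6.53 and 6.73 in macrophages. Itgax, which encodes CD11c, read 8.15, 8.57 and 8.41 in macrophages. The MDP gate genes Kit and Csf1r averaged 7.33 to 7.80 over the wild-type, knockout-labelled and VENUS-positive pools and 6.60 to 6.65 in the VENUS-negative pools, in which Csf1r itself read 5.09 and 4.83. Wild-type pool 3 stood apart, with neutrophil markers at 8.57 (against 4.41 and 4.79 in the other wild-type pools) and erythroid and megakaryocyte markers at 8.98 (against 5.96 and 6.62). Its mast cell and basophil markers averaged 7.05 (against 4.17 and 4.19). NK-cell markers averaged 5.39 in it (against 4.43 and 4.44) and T-cell markers 4.95 (against 3.47 and 3.5). A bulk array cannot tell fewer cells of a type from less RNA per cell.

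The promoters of the members were searched for the ISRE, the composite sequence and the GAS. RefSeq (build GRCm38.p6) gave windows from 250 bases before to 50 bases after a transcription start for 33 of the 44 measured members, all but Dhx58, Ifi27l2a, Iigp1, Mx1, Mx2, Oas2, Parp14, Parp9, Rtp4, Usp18 and Zbp1. The ISRE core, searched as GAAA, any 2 bases and GAAA on both strands, stood in a window of 14 of the 33 members (42.4%) and of 3.99% of all 27025 genes with a window. The composite core of PU.1 and IRF proteins, searched as GGAA, any 2 bases and GAAA on both strands, stood in 5 of 33 (15.2%, against 3.16% of all genes), and the palindromic GAS, TTCNNNGAA, in 6 of 33 (18.2%, against 9.55%). The ISRE and composite letters differ at their second base, so 1 position on a strand cannot match both, although neighbouring matches can overlap. The windows below belong to the members that were called in a comparison of MDPs and hold the ISRE core. Capitals mark the ISRE match, positions count from the transcription start as 0, and a match on the other strand reads as TTTC, 2 bases and TTTC.
Gbp3, chr3:142559794-142560093, plus strand, matches at -45 and -39: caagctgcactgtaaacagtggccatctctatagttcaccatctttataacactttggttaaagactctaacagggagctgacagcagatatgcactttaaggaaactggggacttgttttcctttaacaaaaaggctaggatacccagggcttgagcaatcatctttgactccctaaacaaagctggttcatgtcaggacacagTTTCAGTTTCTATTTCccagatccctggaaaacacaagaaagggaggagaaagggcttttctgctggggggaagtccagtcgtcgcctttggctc
Ddx58, chr4:40239776-40240075, minus strand, match at 2: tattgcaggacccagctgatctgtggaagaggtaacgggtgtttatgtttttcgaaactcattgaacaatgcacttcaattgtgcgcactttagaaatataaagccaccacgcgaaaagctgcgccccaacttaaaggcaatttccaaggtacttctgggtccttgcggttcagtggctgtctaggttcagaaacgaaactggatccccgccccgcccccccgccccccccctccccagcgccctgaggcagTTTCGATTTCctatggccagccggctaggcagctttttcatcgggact
Gbp2, chr3:142620413-142620712, plus strand, match at -59: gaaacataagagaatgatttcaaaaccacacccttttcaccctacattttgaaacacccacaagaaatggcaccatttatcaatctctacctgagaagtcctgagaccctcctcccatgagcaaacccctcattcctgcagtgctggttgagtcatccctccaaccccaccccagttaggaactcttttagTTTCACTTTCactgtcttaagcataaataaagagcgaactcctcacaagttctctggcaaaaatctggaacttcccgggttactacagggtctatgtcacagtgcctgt
Oas3, chr5:120777610-120777909, minus strand, match at -75: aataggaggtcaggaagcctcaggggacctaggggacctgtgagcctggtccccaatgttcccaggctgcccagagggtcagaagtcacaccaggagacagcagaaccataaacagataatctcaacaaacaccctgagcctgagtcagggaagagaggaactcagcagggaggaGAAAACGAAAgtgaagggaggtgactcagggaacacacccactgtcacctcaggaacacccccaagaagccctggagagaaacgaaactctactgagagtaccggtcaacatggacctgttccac
Trim30a, chr7:104465144-104465443, minus strand, match at -36: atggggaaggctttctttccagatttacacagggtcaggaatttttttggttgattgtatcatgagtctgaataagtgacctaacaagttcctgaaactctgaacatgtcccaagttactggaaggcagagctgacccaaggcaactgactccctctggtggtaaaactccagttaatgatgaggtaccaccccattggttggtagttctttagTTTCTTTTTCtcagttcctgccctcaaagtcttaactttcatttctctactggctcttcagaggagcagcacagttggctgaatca
A second Trim30a start, chr7:104446076-104446375, holds the same 10 letters, TTTCTTTTTC, at 2. Of these genes Ddx58, Gbp2 and Oas3 rose and Gbp3 and Trim30a fell where they were called among MDPs, so the match occurs on both sides. The windows of Ifi209, Samd9l and Tapbp, the other called members with a window, hold no ISRE core. Among members with a window that were not called, 11 of 30 in the knockout and 9 of 25 in the VENUS comparison held it. The core was thus not particular to the called members. A match is a run of letters and no measure of binding.

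The members were high in the mature spleen cells and low in MDPs. The mean over the 44 members was 8.0 to 8.39 in the macrophage pools and 7.45 to 7.83 in the granulocyte pools. It was 5.79 to 6.36 in wild-type, 6.0 to 6.41 in knockout-labelled, 5.74 to 6.21 in VENUS-positive and 5.96 to 6.11 in VENUS-negative MDP pools. The pools of every MDP group thus overlapped with one another, and no MDP pool reached a spleen pool. For 28 members the highest of the 6 group means was that of macrophages and for 14 that of granulocytes. The exceptions were Psmb9, an immunoproteasome subunit, highest in VENUS-positive MDPs, and Iigp1, an immunity-related GTPase, highest in VENUS-negative MDPs. Over all genes, 13.1% had their highest mean in macrophages and 37.9% in granulocytes, so the members' share was above that of all genes for macrophages and not for granulocytes. The group means of a member spanned a median of 3.09 log2 units, against 0.83 over all genes. Mx2 and Iigp1 never had a group mean above 4.38, the median of all values, so little can be read from them.

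**Figure D1:**
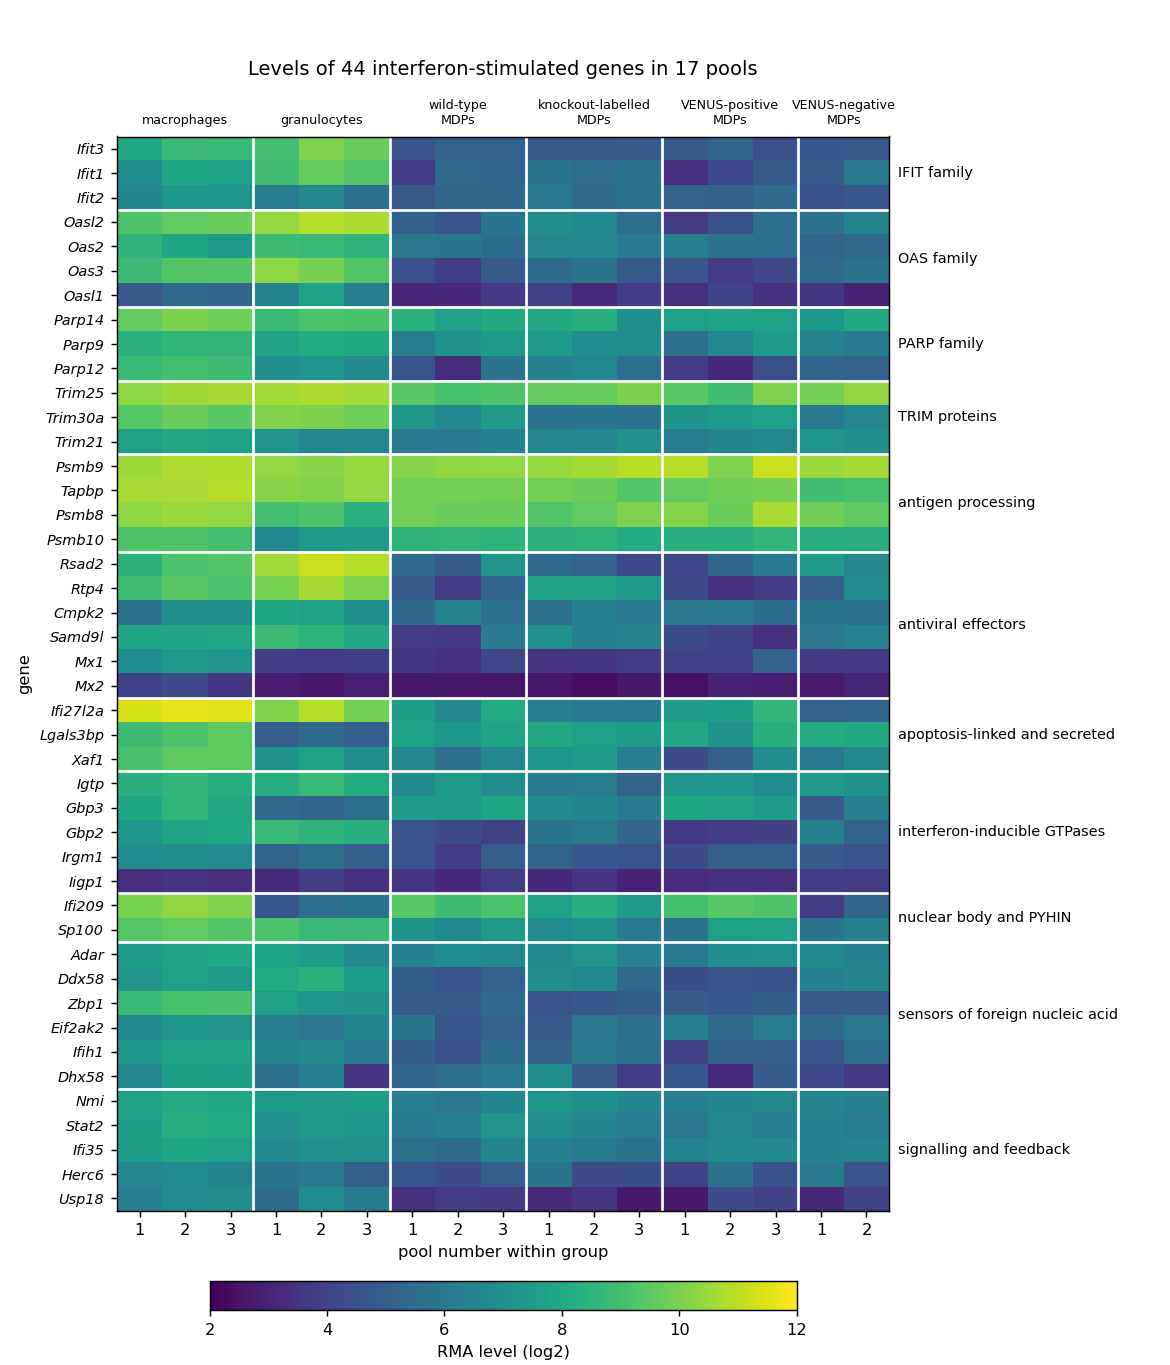
Levels of the 44 measured members (rows, grouped by role) in the 17 pools (columns, grouped by cells), as a colour scale of RMA values in log2 units. The macrophage and granulocyte columns are brighter than the MDP columns for most rows, while Lgals3bp, Ifi209, Gbp3 and Mx1 are darker in granulocytes than in macrophages.

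Spleen macrophages were compared with wild-type MDPs of bone marrow to ask how the mature cell differs from the progenitor. Tissue and sorting gate differ along with maturity in each comparison of spleen cells with MDPs, so their parts cannot be told apart. Progenitors here means these MDPs, which are not held to be the source of the granulocytes. Of the 44 members 37 were higher in macrophages and 0 lower (limma, adjusted p under 0.05), where 23.6% of all genes were called, 11.4% higher and 12.2% lower. The median difference over the members was 1.89, against 0.00 over all genes, and 40 members had an unadjusted p under 0.05, as had 32.1% of all genes. Granulocytes were compared with the same wild-type pools, so the values stand side by side and are not independent. Here 29 members were higher and 5 lower, where 45.2% of all genes were called, 22% higher and 23.1% lower, and the median was 1.18 against 0.10. The pools of 42 members did not overlap for macrophages (44.1% of all genes) and those of 37 for granulocytes (53.3% of all genes). The granulocyte pools also held more signal of NK-cell markers, with means of 6.64 to 7.40 against 4.43 to 4.64 in macrophages. Of the 7 markers 0 in granulocytes and 3 in macrophages were dim, with a group mean under 3.42, and the part of these in the granulocyte values was not tested. Conventional dendritic cell markers averaged 6.58 to 6.88 in macrophages, 4.44 to 5.13 in granulocytes and 4.62 to 4.93 in wild-type MDPs, and their part in the macrophage values was not tested either.

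The OAS family, whose enzymes make the second messenger that activates the nuclease RNase L, held the member with the largest difference in macrophages. Oas3 read 4.46, 3.86 and 4.84 in wild-type MDPs, 8.87, 9.33 and 9.31 in macrophages and 10.31, 9.94 and 9.29 in granulocytes. Every spleen pool lay far above every wild-type pool. The difference was 4.79 for macrophages (SE 0.33, adjusted p = 1.39e-07, 27.6-fold) and 5.46 for granulocytes (SE 0.33, adjusted p = 8.84e-09). All 4 measured OAS genes rose in both, with Oasl2, an OAS-like protein, at 4.29 and 5.48, Oas2 at 2.15 and 2.92 and Oasl1 at 1.88 and 3.52. Rtp4, which encodes a transmembrane chaperone with antiviral activity, rose by 4.56 in macrophages (adjusted p = 2.40e-06) and by 5.62 in granulocytes (adjusted p = 1.02e-07), and in granulocytes this was the largest difference of any member.

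The 3 measured IFIT genes, whose products bind viral RNA, rose in both populations as well. Ifit3 read 4.62, 5.13 and 5.20 in wild-type MDPs, 7.96, 8.82 and 8.72 in macrophages and 8.97, 10.05 and 9.73 in granulocytes, with no overlap between spleen and progenitor pools. Its difference was 3.52 for macrophages and 4.60 for granulocytes. Among the antiviral effectors Rsad2, which encodes viperin, rose by 3.08 and 5.04, and Samd9l, a restriction factor, by 3.41 and 3.92. Mx1, a dynamin-like antiviral GTPase, rose in macrophages alone by this threshold. It read 6.86, 7.40 and 7.23 in macrophages, 3.84, 3.78 and 3.85 in granulocytes and 3.64, 3.43 and 4.13 in wild-type MDPs, so that granulocytes overlapped with the progenitors, and macrophages exceeded granulocytes by 3.34 (SE 0.28, adjusted p = 4.79e-07).

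Of the 6 sensors of foreign nucleic acid, 5 rose in macrophages and 4 in granulocytes. Zbp1, a sensor of Z-form nucleic acid, read 8.77, 9.09 and 9.13 in macrophages, 7.67, 7.27 and 7.18 in granulocytes and 4.90, 4.91 and 5.5 in wild-type MDPs. The groups formed separate steps, with macrophages 3.89 (adjusted p = 4.67e-09) and granulocytes 2.27 (adjusted p = 1.62e-07) above the progenitors. Ddx58, which encodes the RNA helicase RIG-I, rose by 2.55 and 3.11, and Ifih1, which encodes MDA5, by 2.61 and 1.49. Dhx58, their relative LGP2, was called in neither, at 1.63 and -0.44. Its other probe sets gave 2.52 and 1.54 in macrophages and 1.74 and 0.65 in granulocytes, and it was called in macrophages with probe sets averaged (1.90, adjusted p = 1.25e-04) and with only the arrays compared (adjusted p = 0.00576). Dhx58 had the widest spread between pools of the same group among the members (pooled SD 1.06).

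Antigen processing genes were high already in the progenitors. Psmb9 read 10.16, 10.34 and 10.38 in wild-type MDPs, 10.52, 10.79 and 10.79 in macrophages and 10.39, 10.23 and 10.43 in granulocytes, and was called in neither comparison (0.41 and 0.06). Of the 4 measured members of this class, Tapbp, which encodes tapasin of the peptide loading complex, rose in macrophages by 0.90, and Psmb10, an immunoproteasome subunit, by 0.65, the latter with an adjusted p of 0.0571 without macrophage pool 1. In granulocytes Psmb10 fell by 1.30 (adjusted p = 2.98e-05) and Psmb8, another immunoproteasome subunit, fell by 0.94 (adjusted p = 0.00948, and 0.0524 without granulocyte pool 3).

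The other members that were lower in granulocytes were Ifi209, Lgals3bp and Gbp3. Ifi209, a PYHIN protein of the nucleus, read 4.72, 5.67 and 5.89 in granulocytes, 9.39, 8.84 and 9.17 in wild-type MDPs and 10.00, 10.35 and 10.08 in macrophages. Granulocytes thus fell below the progenitors by 3.70 (SE 0.36, adjusted p = 1.08e-06) and macrophages did not differ from them past the threshold (1.01). Lgals3bp, a secreted galectin-binding glycoprotein, read 4.97, 5.42 and 5.12 in granulocytes against 7.71, 7.33 and 7.83 in wild-type MDPs, and it fell by 2.45. Gbp3, a guanylate-binding GTPase, read 5.46, 5.28 and 5.60 against 7.39, 7.43 and 7.86, and it fell by 2.11.

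**Figure D2:**
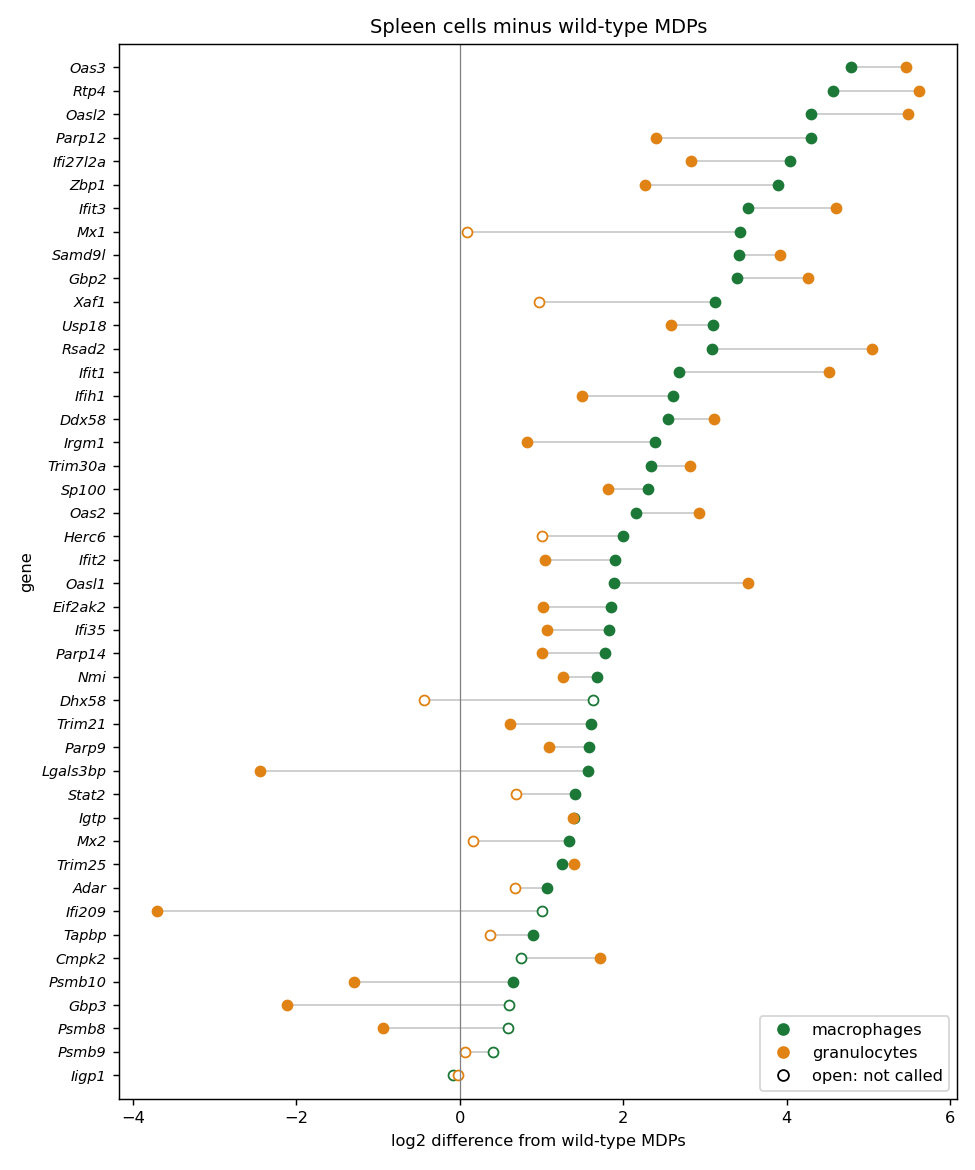
Log2 difference from wild-type MDPs (horizontal axis) for each member (vertical axis, ordered by the macrophage value), in macrophages (green) and granulocytes (orange), filled where called. Most points lie right of 0 for both, while Ifi209, Lgals3bp, Gbp3, Psmb10 and Psmb8 lie left of 0 in granulocytes.

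Set directly against each other, the spleen populations split the list. Of the 44 members 17 were higher in macrophages and 6 in granulocytes, 52.3% in all, where 31.2% of all genes were called, 18.4% higher in macrophages and 12.8% higher in granulocytes. The pools of 36 members did not overlap, as was so for 48.9% of all genes. Those with the largest difference toward macrophages were Ifi209 (4.71, SE 0.36, adjusted p = 2.39e-07), Lgals3bp (4.02), Mx1 (3.34), Gbp3 (2.72) and Xaf1 (2.14), an apoptosis-linked gene. Psmb10 (1.95), the ADP-ribosyltransferase gene Parp12 (1.90) and Zbp1 (1.62) rose too. Toward granulocytes the called genes were Rsad2, Ifit1, Oasl1, Ifit3, Gbp2 and Oas2. Rsad2 read 10.63, 11.2 and 10.93 in granulocytes and 8.42, 9.16 and 9.31 in macrophages, a difference of -1.95 (SE 0.56, adjusted p = 0.0164, and 0.0704 without macrophage pool 1). Ifit1 had a difference of -1.84 (SE 0.44, adjusted p = 0.00537) and Oasl1 of -1.64 (adjusted p = 0.00228), and both kept their call without any single pool of these groups. Gbp2 and Oas2 each lost theirs in 4 of 6 such fits (adjusted p up to 0.13 and 0.14) and Ifit3 in 2 of 6 (up to 0.0581). The 6 calls toward granulocytes became 2 without granulocyte pool 2 and 3 without macrophage pool 1. Of the IFIT genes, Ifit2 went the other way (0.87), with an adjusted p of 0.116 without granulocyte pool 3. Of the members called as higher in granulocytes, 4 of the 5 with a promoter window held the ISRE core. So did 4 of the 13 called as higher in macrophages and 6 of the 15 not called. These counts are small, and the calls toward granulocytes other than those of Ifit1 and Oasl1 depended on single pools.

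Knockout-labelled MDPs were compared with wild-type MDPs to ask which members depend on the IRF8 genotype. Rtp4, Gbp2 and Ddx58 rose and Trim30a fell, 4 of 44 members (9.09%), where 0.907% of all genes were called, 0.456% higher and 0.45% lower. The median over the members was 0.16, against 0.01 over all genes, and the pools of 15 members did not overlap, as was so for 14.7% of all genes. Rtp4 read 4.82, 3.77 and 5.26 in wild-type pools 1 to 3 and 7.85, 7.75 and 7.5 in the knockout-labelled pools. The groups lay well apart, the knockout-labelled pools being tight and the wild-type pools spread, and the difference was 3.08 (SE 0.43, adjusted p = 0.00202, 8.48-fold). The other Rtp4 probe set, which is dimmer, differed by 1.01. On the brighter probe set, the one used, the knockout-labelled mean of 7.70 lay between the wild-type mean of 4.61 and the macrophage mean of 9.18.

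Gbp2, a guanylate-binding GTPase that acts against intracellular pathogens, read 4.55, 4.28 and 3.95 in wild-type and 5.90, 6.06 and 5.29 in knockout-labelled MDPs. The groups did not overlap, with a difference of 1.49 (SE 0.28, adjusted p = 0.0175) on this probe set and 1.48 on the other. Ddx58 read 4.95, 4.58 and 5.20 against 6.94, 6.68 and 5.45. Knockout-labelled pool 3 lay only just above the wild-type pools, and the difference of 1.45 (SE 0.32) had an adjusted p of 0.0479. Its other probe sets gave 0.86 and 0.01, and with probe sets averaged the call was lost (0.77, adjusted p = 0.0994). Trim30a, a tripartite-motif protein that restrains inflammatory signalling, read 7.30, 6.72 and 7.47 in wild-type and 5.82, 5.92 and 5.74 in knockout-labelled MDPs. All knockout-labelled pools were lower, by a difference of -1.34 (SE 0.20, adjusted p = 0.00359) on this probe set and -1.91 on the other. Gbp2 lost its call without knockout-labelled pool 1 or 2 or wild-type pool 2 or 3 (adjusted p up to 0.0958), and Ddx58 without any pool but knockout-labelled pool 3 (up to 0.189), whereas Rtp4 and Trim30a kept theirs (up to 0.0127 and 0.0204). In a fit of only the arrays compared, Trim30a (adjusted p = 0.0796), Gbp2 (0.0915) and Ddx58 (0.27) lost their calls.

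Other members missed the threshold in this comparison. Samd9l read 3.79, 3.67 and 6.12 in wild-type and 7.12, 6.39 and 6.5 in knockout-labelled MDPs, a difference of 2.14 (adjusted p = 0.0657). Its wild-type pools disagreed, and without wild-type pool 3 the difference was 2.94 with an adjusted p of 2.06e-04. Parp12 likewise had 1.63 (adjusted p = 0.177), and 2.25 without wild-type pool 3 (adjusted p = 0.0143). Ifi27l2a (-1.30, adjusted p = 0.13), Ifi209 (-1.33, adjusted p = 0.141) and Gbp3 (-1.09, adjusted p = 0.151) were lower in every knockout-labelled pool than in any wild-type pool. Igtp, an immunity-related GTPase, read 6.73, 7.39 and 6.82 against 6.09, 6.18 and 5.19, without overlap, at -1.16 (adjusted p = 0.053). No IFIT, OAS, PARP or antigen processing member was called, where 0.907% of all genes were called, so that absence says little.

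Markers of other cells differed in level here. The macrophage and monocyte markers averaged 6.69 to 7.45 in knockout-labelled and 7.86 to 8.45 in wild-type pools, with 1 of 10 markers dim in the knockout-labelled group and 0 in the wild-type group. Ly86 carried most of this gap, at 3.87, 3.08 and 3.24 against 10.27, 9.88 and 10.09. Without Ly86 the other 9 markers averaged 7.84, 7.62 and 7.07 against 7.64, 7.64 and 8.27, and the groups overlapped. The erythroid and megakaryocyte markers averaged 4.13 to 4.36 against 5.96 to 8.98, with 1 of 9 dim against 0. The neutrophil markers averaged 6.20 to 6.91 in knockout-labelled pools and 4.41, 4.79 and 8.57 in wild-type pools, with none of 8 dim in either group. Wild-type pool 3 had the highest neutrophil markers of these 6 pools. It had Rtp4 at 5.26 and Ddx58 at 5.20, above the other wild-type pools, and Gbp2 at 3.95, below them. Each of these was below every knockout-labelled pool. The same pool had Samd9l at 6.12, Parp12 at 5.81 and Rsad2 at 7.23, each above the other wild-type pools. The part of these markers in the differences was not tested.

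VENUS-negative MDPs were compared with VENUS-positive MDPs to set reporter cells with little Irf8 transcript against those with much. Samd9l, Rtp4, Ddx58, Gbp2 and Oas3 rose, and Ifi209, Ifi27l2a, Gbp3, Trim30a and Tapbp fell, 10 of 44 members (22.7%), where 5.87% of all genes were called, 2.85% higher and 3.02% lower. The median over the members was -0.06, against -0.01 over all genes. The pools of 19 members did not overlap, as was so for 28.8% of all genes. Ifi209 read 9.06, 9.46 and 9.26 in VENUS-positive and 3.73 and 5.26 in VENUS-negative pools. The VENUS-negative pools were far lower, though apart from each other, by a difference of -4.76 (SE 0.40, adjusted p = 3.91e-06, 27.2-fold). The second Ifi209 probe set gave -5.05.

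Ifi27l2a, which encodes a small membrane protein of the ISG12 family, read 7.53, 7.56 and 8.64 in VENUS-positive and 5.13 and 5.24 in VENUS-negative pools. It was lower in both VENUS-negative pools, by -2.73 (SE 0.39, adjusted p = 4.34e-04). Gbp3 read 7.87, 7.83 and 7.52 against 4.89 and 6.35, a difference of -2.13 (SE 0.34, adjusted p = 0.00112). Trim30a read 7.16, 7.40 and 7.64 against 6.10 and 6.61, a difference of -1.05 (SE 0.23, adjusted p = 0.0105). That p became 0.158 once VENUS-negative pool 1 was left out. Tapbp read 9.61, 9.85 and 9.94 against 8.93 and 9.08, the smallest difference called in this comparison (-0.80, adjusted p = 0.00703, and 0.0814 without VENUS-negative pool 1).

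Among the members that rose, Ddx58 was the most even. It read 4.42, 4.58 and 4.51 in VENUS-positive and 6.38 and 6.57 in VENUS-negative pools, a difference of 1.97 (SE 0.36, adjusted p = 0.00301), while its other probe sets gave 0.86 and 0.20. Gbp2 read 3.69, 3.81 and 3.90 against 6.31 and 5.21, a difference of 1.96 (SE 0.31, adjusted p = 0.00119), and 0.82 on its other probe set. Samd9l read 4.36, 4.06 and 3.33 against 5.98 and 6.45, a difference of 2.29 (SE 0.56, adjusted p = 0.0221). Rtp4 read 4.37, 3.37 and 3.78 against 5.01 and 6.83, so the VENUS-negative pools disagreed. Its difference was 2.08 (SE 0.48, adjusted p = 0.0168), 1.18 without VENUS-negative pool 2 (adjusted p = 0.254), and 0.18 on its other probe set. Oas3 read 4.63, 3.76 and 4.14 against 5.45 and 5.73, a difference of 1.41 (SE 0.37, adjusted p = 0.0344). Oas3 lost its call without VENUS-negative pool 1 or 2 or VENUS-positive pool 2 or 3 (adjusted p up to 0.197), Samd9l without VENUS-negative pool 1 or 2 or VENUS-positive pool 3 (up to 0.155), and Rtp4 also without VENUS-positive pool 2. In a fit of only the arrays compared, Gbp3 (adjusted p = 0.0799), Oas3 (0.0829), Tapbp (0.106), Trim30a (0.111) and Rtp4 (0.181) lost their calls.

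**Figure D3:**
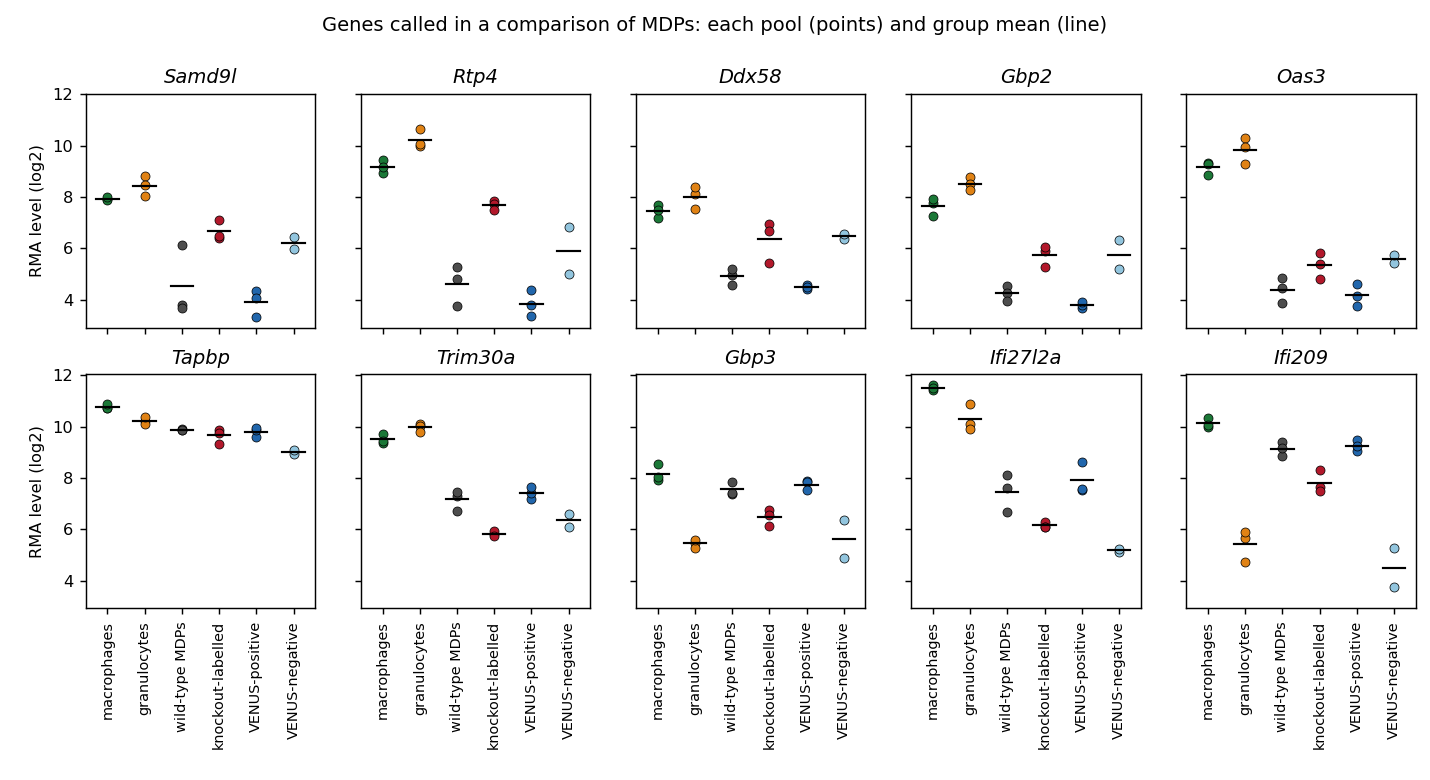
RMA level (log2, vertical axis) of the 10 members called in a comparison of MDPs, with a point for each pool and a line at the mean of each of the 6 groups. The upper row holds the 5 members that rose in VENUS-negative MDPs and the lower row the 5 that fell, and in each panel the VENUS-negative and VENUS-positive points do not overlap.

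Markers of other lineages moved with this comparison too. The erythroid and megakaryocyte markers averaged 9.58 to 10.52 in VENUS-negative and 5.55 to 6.15 in VENUS-positive pools, with 0 of 9 dim against 1. The mast cell and basophil markers averaged 7.52 to 7.61 against 3.93 to 4.20, with 0 of 5 dim against 3. The macrophage and monocyte markers averaged 4.19 to 4.39 against 7.88 to 8.17, with 2 of 10 dim against 0. The neutrophil markers averaged 5.29 to 5.72 against 4.61 to 5.52, with 1 of 8 dim against 0, and these ranges overlapped. The part of these lineages in the differences of the members was not tested.

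The knockout and VENUS comparisons share no arrays, so their values can be set side by side. On the probe sets used, all 10 members called in the VENUS comparison had the same sign in the knockout comparison. All 4 called in the knockout comparison were called in the VENUS comparison with the same sign. Over all genes, 514 of the 1003 called in the VENUS comparison (51.2%) had the same sign in the knockout comparison. Of the 155 genes called in the knockout comparison, 64 were called in the VENUS comparison too, and 86 had the same sign there. Across the 44 members the differences correlated at r = 0.73, and across all 17097 genes at r = 0.02, where the points of each comparison share arrays and genes are not independent replicates. The members were chosen with earlier results of these data known. Their agreement, and their shares of calls in the knockout and VENUS comparisons, are therefore no independent test of the list against all genes. The members that fell in VENUS-negative MDPs had knockout differences of -1.33 for Ifi209, -1.30 for Ifi27l2a, -1.09 for Gbp3 and -0.21 for Tapbp, besides Trim30a. The other Tapbp probe set gave 0.48 in the knockout and -1.12 in the VENUS comparison, so its shared sign did not hold on both probe sets. Ifi209 was the single member for which the comparisons differed past the threshold (VENUS difference minus knockout difference -3.44, SE 0.54, adjusted p = 0.00176), where 3.6% of all genes were called, 1.74% higher and 1.86% lower. Rsad2 pointed to opposite sides, at 1.92 in the VENUS and -0.92 in the knockout comparison, and the difference between them was not called (2.84, adjusted p = 0.0971). Its other probe sets gave -0.14 and 0.70 in the VENUS and -0.46 and -0.24 in the knockout comparison, so the opposite directions did not hold on all of them.

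**Figure D4:**
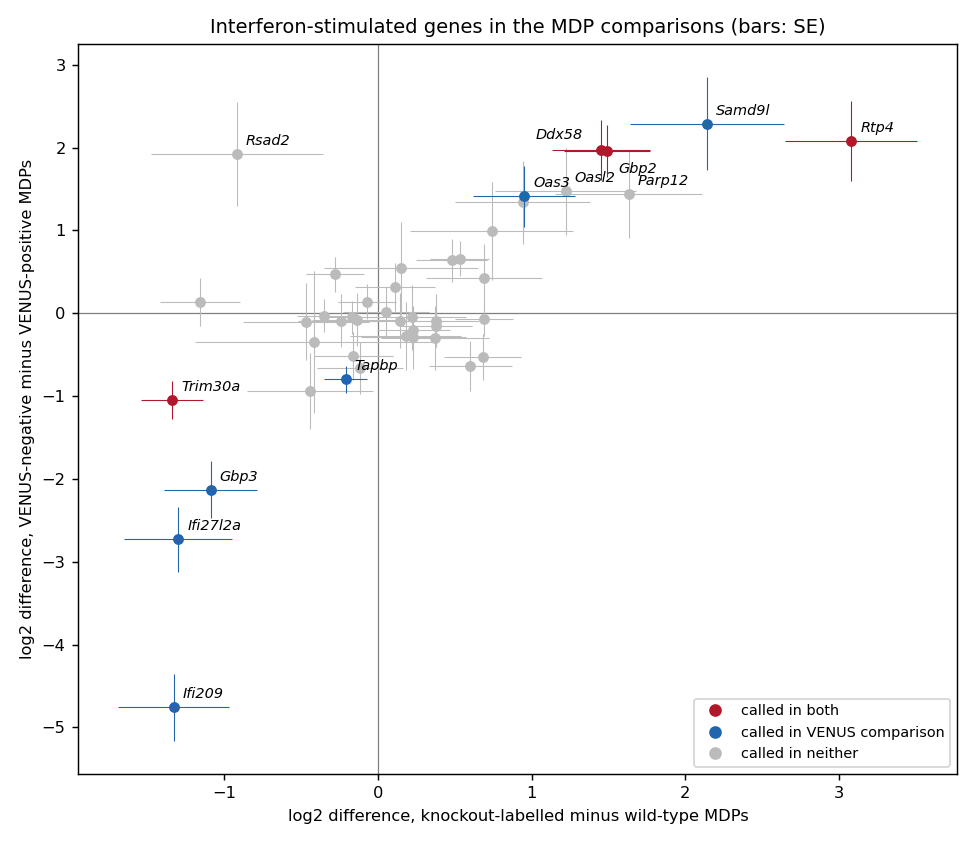
Log2 differences of the 44 members between knockout-labelled and wild-type MDPs (horizontal axis) and between VENUS-negative and VENUS-positive MDPs (vertical axis), with bars of 1 SE. The 4 members called in both lie in the upper right (Rtp4, Gbp2, Ddx58) and lower left (Trim30a), and Ifi209 lies lowest.

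VENUS-positive MDPs were also set against wild-type MDPs, and both hold abundant Irf8 transcript. With limma 0 of 44 members and 0.0% of all genes were called. At an unadjusted p under 0.05 there were 3 members (Ifi35 at 0.77, Eif2ak2 at 0.79 and Mx1 at 0.60) and 6.01% of all genes. The differences of the members ran from -1.34 for Dhx58 to 0.79, with a median of 0.01 against 0.02 over all genes.

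The genes that carry and produce the signal were read from lists of pathway genes. Of 15 measured genes of interferon receptors and signalling, 10 rose in macrophages over wild-type MDPs and 9 rose and 1 fell in granulocytes, where 23.6% and 45.2% of all genes were called. Irf9, which encodes a DNA-binding factor of the type I interferon response, rose by 2.11 and 2.23. Irf7, a regulator of type I interferon genes, read 4.47, 4.69 and 5.08 in wild-type MDPs, 7.93, 8.21 and 8.07 in macrophages and 7.71, 7.95 and 6.67 in granulocytes, so that both spleen groups lay above the progenitors, by 3.32 and 2.70. In MDPs neither Irf7 (0.68, adjusted p = 0.662) nor Irf9 (-0.40, adjusted p = 0.818) was called in the knockout comparison, nor in the VENUS comparison (0.50 and -0.47). Ifngr1, which encodes the ligand-binding chain of the interferon-gamma receptor, rose in knockout-labelled MDPs (1.29, adjusted p = 0.0185) and in VENUS-negative MDPs (1.05, adjusted p = 0.0357). Ifnar2, a chain of the type I receptor, read 10.6, 10.14 and 10.54 in VENUS-positive and 8.94 and 8.93 in VENUS-negative pools and fell by 1.49 on the log2 scale (adjusted p = 1.66e-04), as did Ifngr2 by 1.63 and the phosphatase gene Ptpn6 by 1.10. Of the interferon regulatory factors Irf3 rose in VENUS-negative MDPs (1.88, adjusted p = 1.48e-04), while Irf1 was called in neither MDP comparison (0.50 in the knockout and -0.54 in the VENUS comparison). Of 12 genes of nucleic acid sensing, Sting1 and Unc93b1 fell in VENUS-negative MDPs (-2.38 and -3.11), where 5.87% of all genes were called. Sting1 is the adaptor of DNA sensing, and Unc93b1 carries Toll-like receptors to endosomes. In the knockout comparison 0 of the 12 were called, where 0.907% of all genes were called, so that count says little. Of the 6 measured interferon genes 0 were called in either MDP comparison, where 0.907% and 5.87% of all genes were called, so that count says little. Group means lay between 2.42 and 3.81 for Ifnb1, Ifna2, Ifna4 and Ifng. They were 6.07 to 6.59 for Ifna1 and 5.0 to 5.46 for Ifna5. Ifna5 was called as higher in granulocytes than in wild-type MDPs (0.39, adjusted p = 0.00877) and than in macrophages.

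A list of 46 measured interferon-stimulated genes outside the members gave a like picture of spleen cells. Of these 34 rose and 1 fell in macrophages over wild-type MDPs (median 1.31) and 27 rose and 6 fell in granulocytes (median 0.84), where 23.6% and 45.2% of all genes were called. In the knockout comparison 1 of the 46 was called, where 0.907% of all genes were called. It was the GPI-anchored protein gene Ly6e at -0.81 (adjusted p = 0.00855). In the VENUS comparison 3 rose and 4 fell of 46, where 5.87% of all genes were called. Those that rose were the exonuclease gene Isg20 (2.26), Ifitm1 (1.73), which encodes a membrane protein that hinders viral entry, and the ubiquitin-like activating enzyme gene Uba7 (0.89). Ifi30 (-1.90), a lysosomal thiol reductase gene, Tor3a (-1.47), the PYHIN gene Ifi205 (-1.06) and Ly6e (-0.58) fell. Isg20 had a knockout difference of -1.39 (adjusted p = 0.34), the opposite sign, and its comparisons differed (VENUS difference minus knockout difference 3.65, adjusted p = 0.0126). The same contrast was called for Lgals9, which encodes galectin-9 (2.34, adjusted p = 0.0231, with a knockout difference of -1.15).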

How the data were processed

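The authors deposited log2 values that Affymetrix Expression Console computed by RMA, per the submitters' processing notes. RMA corrects background, quantile-normalizes arrays and summarises probes, so a global shift of a group is largely removed. Software versions are not stated in those notes. There were 45037 probe sets, of which 28898 carried 1 gene symbol, 551 several and 15588 none, and no columns were left out. Symbols follow the platform annotation, checked through 28689 Entrez identifiers against RefSeq names (GRCm38.p6), and 0 changed. Differences were tested in R 4.3.3 by the two-sided moderated test of limma 3.58.1, in 1 fit of 17 arrays with a mean per group (11 residual and 3.21 prior degrees of freedom). Precision is limited by how few arrays there are, and p-values reflect only how pools differ. Members, lists and tests were chosen with earlier results of these data known. Values per pool are given for members called among MDPs, the largest called differences in the other comparisons, and single examples of a role. Examples, also genes near the threshold, were chosen after their values were seen. A marker is called dim at a group mean under 3.42. Alternatives were a fit of only the arrays compared, with and without pool number as a block, averaged probe sets, dim genes left out, median-centred arrays, an intensity trend with a robust prior, and each pool left out. The marker mean without Ly86 was added after the values were seen.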

Additional observations from a re-analysis of the deposited data

Results flagged for a closer look

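Ifi209 was the single member whose differences in the VENUS and knockout comparisons themselves differed in the test of that contrast. The VENUS difference was -4.76 and the knockout difference -1.33, so that the VENUS difference minus the knockout difference was -3.44 (SE 0.54, adjusted p = 0.00176 with limma). Ifi209 was lower in both VENUS-negative pools and in all 3 knockout-labelled pools than in any pool of the group each was compared with. The second Ifi209 probe set gave -5.05 and -1.41. Without any single pool of the 4 groups the adjusted p of the contrast was at most 0.0083. Among pathway genes outside the members the same contrast was called for Irf8 (-4.98), Unc93b1 (-2.80), Sting1 (-2.27), Ifngr2 (-1.42), Ifnar2 (-1.40), Irf1 (-1.04), Irf3 (1.61), Lgals9 (2.34) and Isg20 (3.65).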

How the results depend on the processing

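In the knockout comparison 1 of the 4 called members remained (Rtp4) in a fit of only the arrays compared, and with the replicate block (pool number) 0 were called with limma, with 14 members and 10.1% of all genes at an unadjusted p under 0.05. Leaving out 1 pool gave 2 to 4. In the VENUS comparison these fits called 5 members and, with the block, 1, and leaving out 1 pool gave 6 to 11. The test of the difference between both comparisons called 2 members with probe sets averaged (Tapbp besides Ifi209), 2 with the replicate block (Oas2 besides Ifi209), and 1 to 2 with a pool left out. Fits of fewer arrays have fewer residual degrees of freedom. Pool numbers do not pair the samples by the labels, and same-numbered pools deviated together at r = -0.05 to 0.13 over genes. The total counts of the spleen comparisons stayed within 1.5 times under the alternatives run, but the 6 members higher in granulocytes than in macrophages became 2 without granulocyte pool 2 and 3 without macrophage pool 1. No called difference changed sign. Of 109 called differences, 12 lost their call with only the arrays compared, 18 with the replicate block, 4 with median-centred arrays, 3 with averaged probe sets and 0 with the trend and robust prior. Through every fit that left out 1 pool, calls were kept for 2 of 4 calls in the knockout, 5 of 10 in the VENUS, 15 of 23 in the spleen, 35 of 37 in the macrophage and 29 of 34 in the granulocyte comparison. Levels near the lower quartile, such as those of Mx2 and Iigp1, limit what can be read from those genes.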
